A study of Arabidopsis thaliana with 10 samples.

Results

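The transcripts described here were higher in roots of sdi1sdi2 double knockout plants (WKO) than in roots of the wild type (Col) at low sulfate. They lay within 0.5 of Col, in log2 units, when SDI1 was overexpressed (OX) at full sulfate. They were chosen from the measured values by a rule on group means in log2 units: -S WKO minus -S Col of at least 0.8, +S OX minus +S Col between -0.5 and 0.5, and a mean of more than 0.5 in -S WKO. The rule kept 120 of 22197 probe sets, the short oligonucleotide groups by which the ATH1 array measures a transcript. Before exclusions 130 probe sets passed. Of these, 6 organelle-encoded probe sets and 4 probe sets named in the rule were left out. The platform annotation lists a single gene for 54 of the 120 members, several genes for 2 and none for 64, so the last group is given by probe set identifier and without a role. Of the 54 genes, 53 are annotated as protein coding and 1 as a pseudogene.

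Arabidopsis thaliana roots were harvested after 10 days on agar medium, with 2 arrays in each of 5 groups. The groups were -S WKO and -S Col on 15 µM sulfate, and +S WKO, +S OX and +S Col on 1500 µM sulfate. WKO arrays came from knockout lines 1 and 4, OX arrays from overexpression lines 6 and 12, and Col is the accession Columbia, so each mutant line gave 1 array per condition. Overexpression was measured at full sulfate only, and the sources used here do not name the promoter that drives it. Nothing in the labels says that arrays of 1 group came from separate plantings, so the p-values measure the spread between these arrays. In the Col groups that spread may be technical, and in the WKO and OX groups it also holds differences between lines. The fit pools both kinds.

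Roots take up sulfate and reduce it to sulfide, from which cysteine, methionine and glutathione are made. Brassicaceae also place sulfur in glucosinolates, defence compounds that can be broken down when sulfur is short. SDI1 and SDI2 are genes induced by sulfur deficiency, and both are known as repressors of aliphatic glucosinolate synthesis.

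SDI2 itself served as the check of the genotype. Its log2 level was 0.31 and -1.52 in -S WKO, against 5.65 and 5.47 in -S Col. At full sulfate it was -0.35 and -1.16 in +S WKO, 1.52 and 1.86 in +S OX, and 1.83 and 1.57 in +S Col. All WKO arrays were below all Col arrays at the same sulfate level. SDI1 has no listed probe set, so neither its loss nor its overexpression was checked here. Arrays of a group correlated over all probe sets at 0.9904 to 0.9959, and array medians spanned 0.126 to 0.137 in the deposited log10 units. Background on each array was the 0.95 quantile of 22 control probe sets for Bacillus transcripts, a log2 level of -0.58 to 0.37 depending on the array. By this measure SDI2 was above background on the WKO line 1 array at both sulfate levels. On the line 4 arrays it was under background. The number of arrays, 2 per group, limits the precision of every value.

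Because the low-sulfate difference chose the members, its size is a description with no test. The median -S WKO minus -S Col difference was 1.1, and 1.08 with the 7 members whose Col arrays were both at or under background taken at their lower bound. Over the other 113 members it ran from 0.81 to 2.98. With those bounds, a difference of 2-fold or more was reached by 67 members, and one of 4-fold or more by 8. The limma adjusted p was under 0.05 for 109 of 120 members in the direction of WKO, where it was for 1.73% of all probe sets. This count rests on the values that chose the members, and nothing is read from it. Both WKO arrays lay above both Col arrays for 119 of 120 members, where 19.2% of all probe sets did so. The exception was 249819_at, a probe set without a listed gene, named after its values were seen. All 120 members were above background on both -S WKO arrays, a level that the rule favoured. Some single-gene members named below had only 1 of 2 -S Col arrays above background, so their differences are less certain. These were AT2G43550, AT5G67150, AT1G19190, AT3G59000, AT2G31945, AT4G12490, AT1G60730, AT2G07741, AT1G33110 and AT2G16005.

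The 2 largest differences between the low-sulfate means belonged to probe sets without a listed gene, one of them under background in Col. Probe set 255437_at had log2 levels of 2.56 and 2.94 in -S WKO, against -1.70 and -1.32 in -S Col. Its other levels were -1.68 and -1.34 in +S WKO, -1.5 and -1.80 in +S OX, and -1.35 and -1.75 in +S Col. It was thus above background in -S WKO and in no other group, and its low-sulfate level in WKO was at least 6.52-fold that in Col. Probe set 263696_at was detected in every group, at 4.70 and 4.74 in -S WKO, against 1.80 and 1.66 in -S Col. At full sulfate it stood at 2.78 and 3.03 in +S WKO, 1.99 and 1.90 in +S OX, and 2.46 and 2.43 in +S Col. Its levels in -S WKO were the highest of the 5 groups, and its mean OX difference of -0.50 lay at the edge of the window.

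AT2G43550, a defensin-like member of the trypsin inhibitor-like family of small cysteine-rich proteins, had the largest low-sulfate difference among members with a single gene. Its levels were 3.07 and 2.77 in -S WKO, against 0.28 and -0.21 in -S Col, a 7.41-fold difference. At full sulfate they were 1.78 and 1.81 in +S WKO, 1.06 and 0.97 in +S OX, and 1.40 and 1.48 in +S Col. Low sulfate went with a higher level in WKO and a lower one in Col, and 1 of the 2 -S Col arrays was under background. Of 5 genes in the list of such small proteins 3 have a listed probe set, and AT2G43550 was the only member among those 3. AT4G05550, the annotated pseudogene, had levels of 2.46 and 2.98 in -S WKO and 0.13 and 0.38 in -S Col, and no array at full sulfate was above background.

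AT4G01870, which encodes a protein related to bacterial TolB, had levels of 3.77 and 3.47 in -S WKO, against 1.55 and 1.42 in -S Col. Its levels were 1.5 and 1.37 in +S WKO, 1.02 and 0.93 in +S OX, and 1.42 and 1.32 in +S Col. The -S Col arrays were close to the +S WKO and +S Col arrays, and the -S WKO arrays stood alone. AT4G24130, a protein with a domain of unknown function, was likewise highest in -S WKO, at 4.18 and 4.02, against 2.66 and 2.52 in -S Col and 2.38 or less on all 6 arrays at full sulfate. AT1G12030, another protein of unknown function, was at 5.88 and 5.59 in -S WKO and 4.09 and 4.47 in -S Col. All 6 of its arrays at full sulfate were under background, between -1.5 and -1.31. Its level at low sulfate was at least 75.8-fold that at full sulfate in WKO and at least 25.9-fold in Col.

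**Figure D1:**
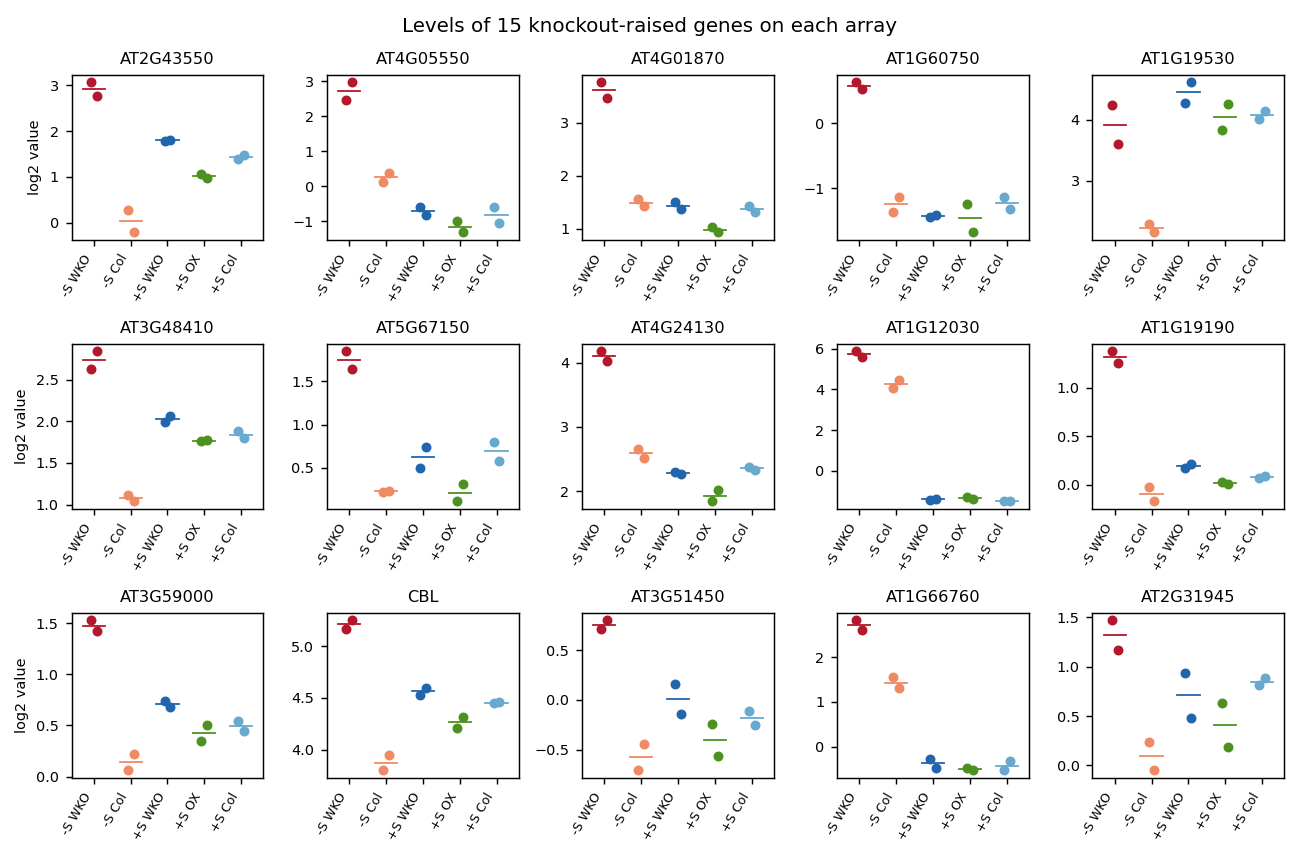
Log2 level of the 15 single-gene members with the largest low-sulfate difference, with 1 point per array and a bar at the mean of each group of 2 arrays. The vertical axes differ between panels, and levels cannot be compared between genes. In every panel both -S WKO points lie above both -S Col points, which the choice of members favoured, while the full-sulfate groups lie close together in most panels.

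The members named below by role were grouped from their gene descriptions with the values known. Among enzymes of amino acid, cofactor and thiol metabolism there were 7 members, with low-sulfate differences of 0.84 to 1.34. CBL, cystathionine beta-lyase, makes homocysteine for methionine synthesis. Its levels were 5.17 and 5.25 in -S WKO, against 3.80 and 3.95 in -S Col. At full sulfate they were 4.53 and 4.60 in +S WKO, 4.21 and 4.32 in +S OX, and 4.45 and 4.46 in +S Col. CBL was therefore highest in -S WKO and lowest in -S Col. AT1G14810, aspartate-semialdehyde dehydrogenase of the pathway that leads to methionine, threonine and lysine, was at 5.42 and 5.59 in -S WKO and 4.34 and 4.48 in -S Col. Its 6 arrays at full sulfate lay between these, from 4.70 to 4.96.

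GRXC2, a glutaredoxin that uses glutathione to reduce disulfides, had levels of 7.13 and 7.29 in -S WKO and 6.38 and 6.30 in -S Col. They were 5.96 and 6.00 in +S WKO, 5.28 and 5.40 in +S OX, and 5.49 and 5.67 in +S Col. GSTU25, a tau-class glutathione transferase, had 3.68 and 3.58 in -S WKO and 2.72 and 2.79 in -S Col. Its +S WKO arrays read 2.08 and 2.06, its +S OX arrays 1.83 and 1.09, and its +S Col arrays 1.65 and 1.69. Both genes were higher at low than at full sulfate in both genotypes, and their WKO arrays were above the Col arrays at both sulfate levels. GR2, the glutathione reductase of plastids and mitochondria, was at 3.29 and 3.44 in -S WKO, against 2.56 and 2.48 in -S Col. Its +S WKO arrays, at 2.70 and 2.77, lay below its +S Col arrays, at 3.05 and 2.80. THX, a plastid thioredoxin, differed by 0.84 at low sulfate, and AT2G43760, the large subunit of molybdopterin synthase, by 0.88. In the fixed list of 9 methionine and glutathione genes 3 have a listed probe set. CBL and GR2 were members and GR1, the glutathione reductase of cytosol and peroxisomes, was not, with a low-sulfate difference of 0.08.

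Members of the MATE family, efflux carriers that move organic acids, hormones and secondary metabolites across membranes, numbered 5. Their low-sulfate differences ran from 0.89 to 1.29. AT1G66760 had levels of 2.82 and 2.60 in -S WKO and 1.55 and 1.30 in -S Col. At full sulfate its levels were -0.28 and -0.47 in +S WKO, -0.47 and -0.51 in +S OX, and -0.53 and -0.31 in +S Col. Low sulfate thus went with higher levels in both genotypes, and the knockout arrays were the highest. AT3G21690 was at 2.47 and 2.11 in -S WKO and 1.30 and 1.19 in -S Col, and AT4G22790 at 1.69 and 1.63 in -S WKO and 0.68 and 0.72 in -S Col. For both of these the -S Col mean lay within 0.1 of the +S Col mean. AT1G61890 was the only one of the 5 that was lower by 0.5 or more at low than at full sulfate in Col, at 3.04 and 2.82 in -S WKO, 2.18 and 1.76 in -S Col, 3.69 and 3.01 in +S WKO, and 2.58 and 2.67 in +S Col. AT1G33110 had the smallest difference, 0.89, with 1 of the 2 -S Col arrays under background. A list of 55 MATE genes, added after these members had been seen, has 37 genes with a listed probe set. Over its 38 probe sets the median WKO minus Col difference was 0.06 at low sulfate and 0.00 at full sulfate, against -0.04 and -0.02 over all probe sets. The limma adjusted p at low sulfate was under 0.05 for 5 of the 38, where 1.73% of all probe sets were called higher. As 4 of the 5 were chosen by this difference, nothing is read from the count. The 5 were the members other than AT1G61890, whose adjusted p was 0.058, and AT5G65380, named after its values were seen, whose OX difference of -0.78 lay outside the window.

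Of 6 genes for defensin-like and other secreted proteins 5 were lower by 0.5 or more at low than at full sulfate in Col. PDF2.1, a defensin-like protein, was at 2.58 and 2.86 in -S WKO and 1.68 and 1.65 in -S Col. Its levels were 3.31 and 3.44 in +S WKO, 2.80 and 3.17 in +S OX, and 2.24 and 2.91 in +S Col. Low sulfate thus went with lower levels in both genotypes. AT1G25275, a thionin-like protein, had the same order by sulfate, at 4.87 and 4.61 in -S WKO and 3.94 and 3.89 in -S Col, with 5.35 and 5.20 in +S WKO and 4.99 and 5.16 in +S Col. AT2G16005, a protein with an MD-2-related lipid recognition domain, was at 0.97 and 0.45 in -S WKO and -0.15 and -0.06 in -S Col. The +S WKO arrays of AT2G16005 read 1.24 and 1.51, and its +S Col arrays 1.23 and 1.08. AT4G12490, of the lipid-transfer and protease inhibitor-like family, differed by 1.1 ± 0.34 (SE) at low sulfate, and its 2 +S WKO arrays, at 0.87 and -0.29, lay on either side of both +S Col arrays. AT2G15220, a basic secretory protein, was the exception, higher at low than at full sulfate by 1.33 in WKO and by 0.42 in Col.

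Alpha/beta hydrolases, a broad class of esterases and lipases, gave 4 members. AT3G48410 had levels of 2.63 and 2.84 in -S WKO, against 1.11 and 1.04 in -S Col. Its full-sulfate arrays were 1.99 and 2.06 in +S WKO, 1.76 and 1.77 in +S OX, and 1.88 and 1.80 in +S Col, so that -S Col was lowest and -S WKO highest. AT1G19190 was at 1.38 and 1.26 in -S WKO and -0.02 and -0.17 in -S Col, with all 6 full-sulfate arrays between 0.01 and 0.22. AT4G10030 and AT3G62860 differed by 0.96 and 0.86 at low sulfate.

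A pair of aldo-keto reductases, enzymes that reduce aldehydes and ketones, were members and lie close together on chromosome 1 with 1 annotated gene between them. AT1G60750 was above background in -S WKO only, at 0.64 and 0.53, against -1.36 and -1.13 in -S Col, at least 1.45-fold. AT1G60730 was at 1.2 and 1.1 in -S WKO and 0.17 and 0.32 in -S Col. They are close relatives, so their values are uncertain where probes of one also bind transcripts of the other, which was not tested.

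The other enzymes among the members were 5. AT5G67150, of the HXXXD acyltransferase family, was at 1.85 and 1.64 in -S WKO and 0.22 and 0.23 in -S Col. AT3G51450, a strictosidine synthase-like protein, and UGT87A2, a glucosyltransferase, were at or under background on both -S Col arrays, and their low-sulfate levels in WKO were at least 1.64-fold and at least 1.48-fold those in Col. OPCL1, a coenzyme A ligase of jasmonate synthesis, was at 2.54 and 2.54 in -S WKO and 1.56 and 1.37 in -S Col. AT1G52820, a 2-oxoglutarate and iron-dependent oxygenase, is described with the full-sulfate comparison.

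F-box proteins, the subunits by which ubiquitin ligases recognise their targets, gave 3 members. AT3G59000 was at 1.53 and 1.42 in -S WKO and 0.06 and 0.22 in -S Col, AT1G06630 differed by 0.82, and SKP2A, known for its role in the cell cycle, by 0.90. Among members outside these groups, AT1G19530 had levels of 4.24 and 3.60 in -S WKO and 2.29 and 2.16 in -S Col, with 4.28 and 4.62 in +S WKO and 4.02 and 4.15 in +S Col. AT5G04750, an inhibitor protein of the mitochondrial F1F0-ATPase, was at 4.93 and 4.75 in -S WKO, against 3.80 and 3.62 in -S Col. Its 6 arrays at full sulfate lay between 4.70 and 4.99, so the -S Col arrays alone were low. AT2G25510 rested on uneven arrays, with 1.92 and -0.18 in +S OX and 0.62 and 1.92 in +S Col, and its OX difference of -0.40 is correspondingly uncertain. AT2G31945 and AILP1, an aluminium-induced-like protein, differed by 1.23 and 0.87. The remaining 13 members with a single gene differed by 0.84 to 1.18 at low sulfate. One of them, AT2G07741, lies in the copy of mitochondrial DNA on chromosome 2 and cannot be told apart here from its near-identical mitochondrial gene. It was singled out after its values were seen.

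**Figure D2:**
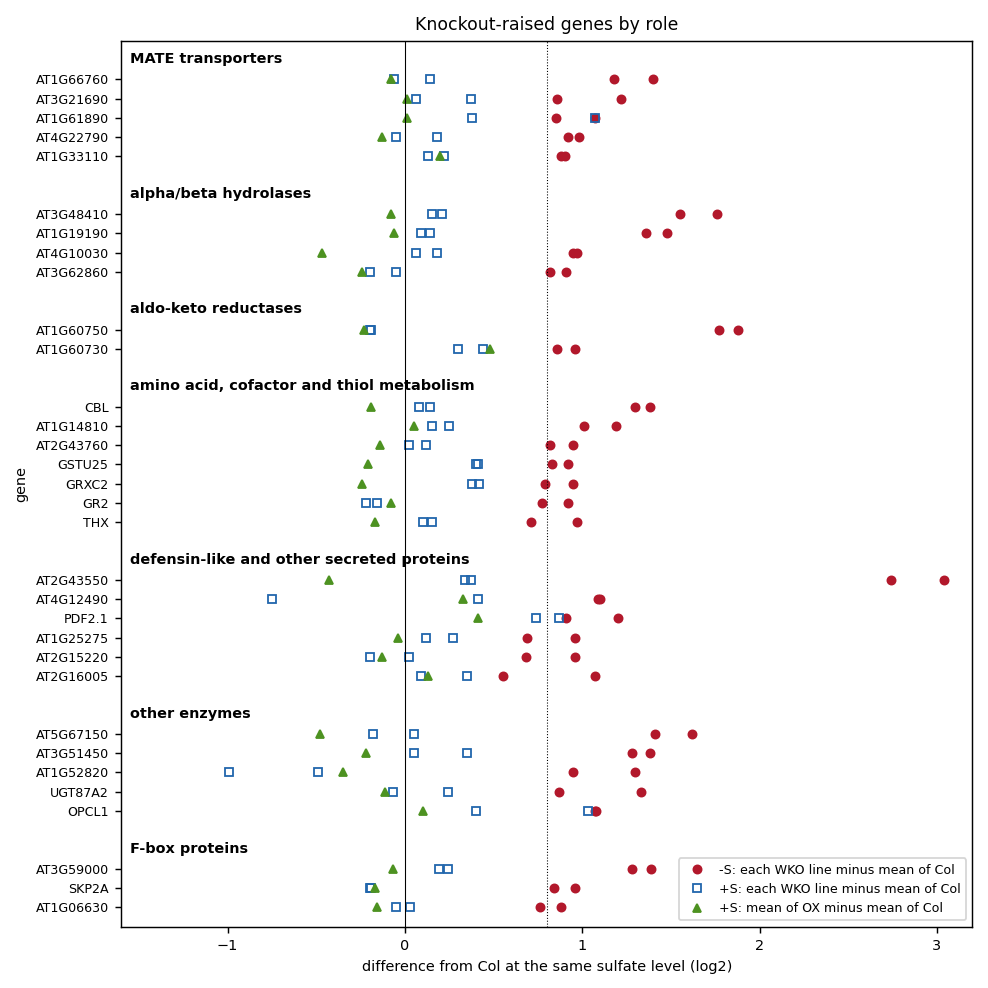
Difference from Col in log2 units for the 32 members in the 7 role groups, with filled circles for each WKO line at low sulfate, open squares for each WKO line at full sulfate and triangles for the OX mean at full sulfate. The dotted line marks the 0.8 required of the low-sulfate mean. Most squares lie close to 0, and the squares of PDF2.1, OPCL1 and AT1G61890 lie furthest to the right.

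The values nearest the rule's threshold were close on both sides of it. Just inside, AT2G16005 differed by 0.81 and AT1G06630 and AT2G15220 by 0.82 between -S WKO and -S Col. Just outside, YUC6, an enzyme of auxin synthesis, AT2G15580, and JAL22, a jacalin-related lectin, each differed by 0.77.

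A raised WKO minus Col difference at low sulfate can go with several sulfate responses, and the members divided among them. The sulfate differences share arrays with the rule and are therefore given without a test. In WKO, 7 members were lower at low than at full sulfate by 0.5 or more in log2 units, 40 were within 0.5 and 73 were higher. In Col, 44 were lower, 60 within 0.5 and 16 higher. Over all 22197 probe sets, 1055 were lower, 20338 within 0.5 and 804 higher in WKO. In Col those counts were 1064, 19974 and 1159. The median low-sulfate minus full-sulfate difference was 0.65 in WKO and -0.31 in Col. Over members above background on at least 1 array of both groups, it ran from -1.90 to 3.76 in WKO (115 members) and from -3.10 to 2.88 in Col (109 members). The widest bound was that of 251428_at, which has no listed gene and was named after its values were seen. Its level at low sulfate was at least 199-fold that at full sulfate in WKO and at least 81.2-fold in Col.

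Among the 44 members that were lower in Col, 28 were within 0.5 of their full-sulfate level in WKO, 7 were lower in WKO as well and 9 were higher. Those counts were 528, 484 and 52 among the 1064 of all probe sets that were lower in Col. The required low-sulfate difference favours a smaller fall in WKO than in Col, so nothing is read from this comparison. AT5G04750 belonged to the 28, with a sulfate difference of -0.08 in WKO and -1.26 in Col. AT1G19530, PDF2.1, AT1G25275 and AT2G16005 belonged to the 7, with WKO differences of -0.53 to -0.67 and Col differences of -0.91 to -1.86. AT2G43550, AT3G48410, CBL and AT2G31945 belonged to the 9.

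Of the 60 members within 0.5 in Col, 48 were higher at low sulfate in WKO and 12 were within 0.5 in both. Among the 19974 of all probe sets within 0.5 in Col, those counts were 342 and 19116. AT4G01870 had a sulfate difference of 2.18 in WKO and 0.11 in Col, AT4G24130 one of 1.83 in WKO and 0.23 in Col, and AT1G19190 one of 1.13 in WKO and -0.17 in Col. All 16 members that were higher in Col at low sulfate were also higher in WKO. Of the 1159 probe sets higher in Col, 410 were. The rule required WKO to exceed Col by at least 0.8 at low sulfate, which favours a higher level there in WKO. These counts therefore follow largely from the choice of members, and nothing is read from them beside those of all probe sets. AT1G12030, AT4G05550, AT1G66760, GSTU25, GRXC2 and AILP1 belonged to the 16.

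**Figure D3:**
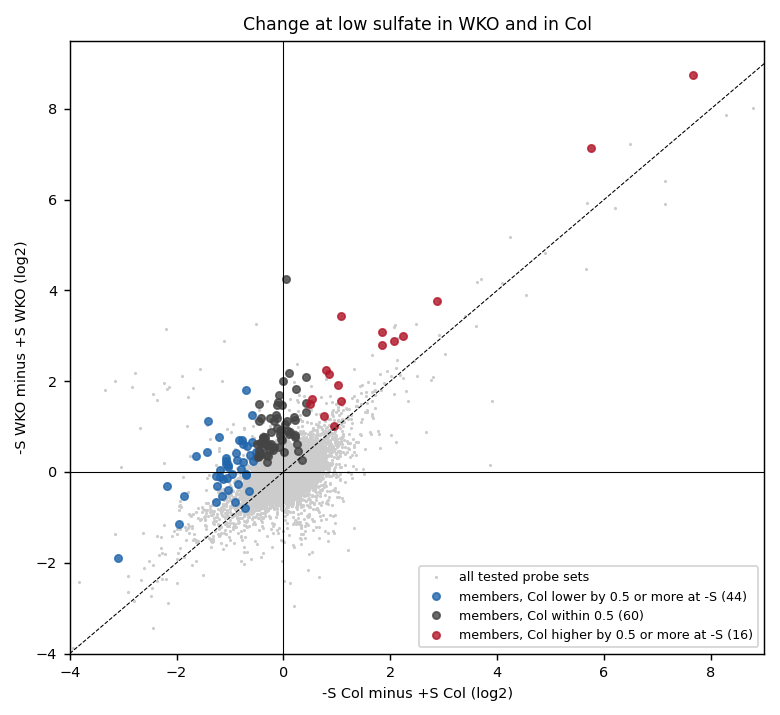
Low-sulfate minus full-sulfate difference of the group means in log2 units, WKO on the vertical axis and Col on the horizontal axis, with the 120 members coloured by their change in Col over all tested probe sets in grey. All members but 2 lie above the dashed line of equal change, which follows largely from their choice, and 60 of them lie within 0.5 of 0 on the Col axis. Points of members under background at full sulfate stand at their measured values, which are no exact differences. The axes leave out 8 probe sets, none of them a member.

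Markers of root cell types and of green tissue were set beside these values, and none of those measured passed limma's adjusted p between -S WKO and -S Col. The root hair list has 3 genes, of which 2 have a listed probe set. The log2 of their summed linear levels was 4.37 to 4.51 in -S WKO and 4.90 to 5.03 in -S Col. Of these, EXPA7 lay near the threshold, with a -S WKO minus -S Col difference of -0.64 (limma adjusted p = 0.051). For the nuclear photosynthesis genes, 3 of 5 with a listed probe set, the log2 of the sum was 3.25 to 3.27 in -S WKO and 3.41 to 3.50 in -S Col. The 1 measured gene of 4 in the endodermis list was at 2.27 to 2.28 in -S WKO and 2.43 to 2.53 in -S Col. For the 2 of 3 cell cycle genes with a listed probe set the log2 sums overlapped, at 2.15 to 2.44 in -S WKO and 2.34 to 2.42 in -S Col. Neither of 2 vasculature genes has a listed probe set. The part of these levels in the members' differences was not tested, and in whole roots fewer cells of a type and less RNA per cell cannot be told apart.

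The +S WKO arrays were not used to choose the members, so the comparison of +S WKO with +S Col asks whether the members already differed in the knockout at full sulfate. It shares the +S Col arrays with the OX window of the rule. With limma and p-values adjusted by Benjamini-Hochberg over all 22197 tested, 0 of 120 members passed an adjusted p of 0.05, where 0.0225% of all probe sets did. At an unadjusted p under 0.05, 20 members were higher in WKO, where 2.9% of all probe sets were, and 1 was lower, where 2.66% of all were.

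The members' differences at full sulfate were small and mostly above 0. The median +S WKO minus +S Col difference was 0.14 over the members, with an interquartile range of 0.03 to 0.23, against a median of -0.02 over all probe sets. It was 0.14 in line 1 and 0.14 in line 4, each against the mean of +S Col. The WKO mean was above the Col mean for 95 members, or 79.2%, against 43.5% of all probe sets. Both WKO arrays were above both Col arrays for 66 members, or 55%, where 17.3% of all probe sets were, and below for 13 members, where 24.5% of all were. Among the 10471 probe sets that pass the level and OX requirements of the rule, those shares were 21% above and 23.7% below. The median standard error of a difference was 0.13. The difference exceeded its own standard error in size for 73 members and 2 standard errors for 25. The share of all probe sets past these sizes was not counted, so nothing is read from either count. No single member is shown to differ at full sulfate.

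**Figure D4:**
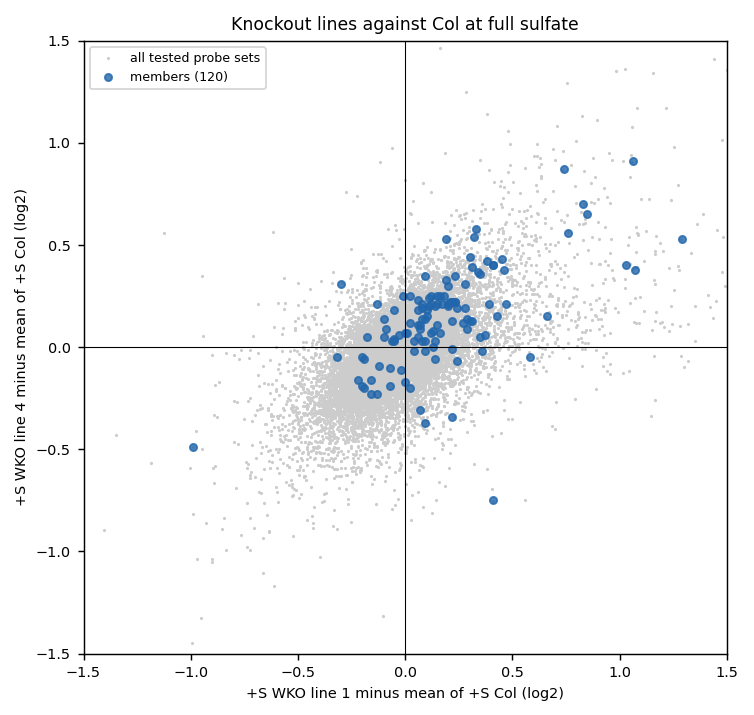
Each knockout line minus the mean of the 2 +S Col arrays at full sulfate, in log2 units, with line 4 on the vertical and line 1 on the horizontal axis, and the 120 members in blue over all tested probe sets in grey. Of the members, 81 lie at the upper right, where both lines are above Col, and 15 in the lower left. The axes leave out 58 probe sets, none of them a member.

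A full-sulfate difference of 0.5 or more in favour of WKO was found for 8 of 120 members, where 330 of 22197 probe sets had one. The highest among the members was 250533_at, which has no listed gene and was named after its values were seen. Its levels were 2.46 and 2.31 in +S WKO, 1.88 and 1.51 in +S OX, and 1.28 and 1.52 in +S Col, so that WKO differed from Col by 0.98 ± 0.16 (SE, limma adjusted p = 0.13). The 5 single-gene members with the largest full-sulfate differences were PDF2.1, AT2G25510, OPCL1, AT1G61890 and GSTU25. PDF2.1 differed by 0.80 ± 0.22 (SE, limma adjusted p = 0.49), with +S WKO arrays of 3.31 and 3.44 above +S Col arrays of 2.24 and 2.91. OPCL1 differed by 0.72 ± 0.19 (SE, limma adjusted p = 0.49), with 2.24 and 1.61 in +S WKO and 1.1 and 1.32 in +S Col. AT1G61890 differed by 0.72 ± 0.22 (SE, limma adjusted p = 0.58), and its +S WKO array of line 1, at 3.69, lay above that of line 4, at 3.01. GSTU25 differed by 0.40 ± 0.20 (SE, limma adjusted p = 0.96), and AT2G25510 by 0.75 ± 0.61 (SE, limma adjusted p = 1.00). Groups overlapped for AT2G25510 and for none of the other 4.

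AT1G52820 was the one member lower by 0.5 or more in WKO at full sulfate, where 150 of 22197 probe sets were. Its levels were 0.81 and 0.46 in -S WKO, against -0.70 and -0.28 in -S Col, but -0.05 and 0.45 in +S WKO, against 0.64 and 1.24 in +S Col. The full-sulfate difference was -0.74 ± 0.28 (SE, limma adjusted p = 0.80), and WKO was the lower genotype at full sulfate and the higher one at low sulfate. At low sulfate both of its Col arrays were at or under background, and its WKO level was at least 1.51-fold that of Col.

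The count without overlap at full sulfate is given by annotation and by role, with no test between the groups. Both WKO arrays were above both Col arrays for 22 of the 54 members with a single gene, or 40.7%, and for 43 of the 64 without a listed gene, or 67.2%. By role, this was so for 5 of 7 enzymes of amino acid, cofactor and thiol metabolism, 4 of 6 secreted proteins, 3 of 4 hydrolases, 2 of 5 MATE carriers, 1 of 2 aldo-keto reductases, 1 of 3 F-box proteins, 1 of 5 other enzymes and 3 of the 13 genes in no group. The share over all probe sets was 17.3%.

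The rule's window on overexpression left a spread of values. The +S OX minus +S Col difference had a median of -0.16 over the members and ran from -0.50 to 0.48. In OX 91 of 120 members lay below Col, where 9593 of the 22197 probe sets did. Only 57 members were within 0.2 of Col, against 16495 of the 22197 probe sets. The rule used these values, and the 22197 probe sets were held to neither its window nor its level, so the counts are descriptions only. Given the spread, the members are described by the window and not as unmoved.

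The members can be set beside the 69 probe sets that met the same low-sulfate threshold but were lower in OX by 0.5 or more. The median -S WKO minus -S Col difference was 1.1 for the members and 1.90 for the 69. Of the members, 36.7% were lower in Col at low than at full sulfate, against 73.9% of the 69, or 51 probe sets. At full sulfate, both WKO arrays were above both Col arrays for 55% of the members, against 60.9% of the 69, or 42 probe sets. These sets were separated by the difference between +S OX and +S Col. The last 2 comparisons use the same +S Col arrays, so they are not independent of that separation. The differences between the sets were not tested. A further 7 probe sets at the same threshold were higher in OX by 0.5 or more.

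Few genes of the sulfur and glucosinolate lists have a probe set with a listed gene. A gene is counted as measured here only if a probe set lists it alone. Other genes of the lists may be measured by probe sets without a listed gene, which 64 of the 120 members are. The rule leaves out by name 3 genes of these lists that pass its requirements, so a count of members says nothing about the lists that hold them. They are ATPS3, an ATP sulfurylase, UGT74B1, a glucosyltransferase of glucosinolate synthesis, and GTR2, a glucosinolate importer. Their -S WKO minus -S Col differences were 1.85, 2.07 and 0.90 in that order, and their OX differences -0.16, -0.37 and -0.45. They belong to the lists of 17 sulfate assimilation genes with 3 measured, 9 indolic glucosinolate synthesis genes with 1 measured, and 10 glucosinolate breakdown and transport genes with 4 measured. None of the 6 measured genes of 27 in aliphatic glucosinolate synthesis was a member. Of these, AOP1 and AOP3 were under background on every array and could not pass the level requirement. In limma 4 of the 6 were higher in WKO than in Col at low sulfate. Their OX differences lay outside the window, at -7.69 for BCAT4, -3.20 for GSTU20, -2.27 for UGT74C1 and -2.43 for GSL-OH. Over all 6 the median OX difference was -2.35. The lists of 10 glucosinolate regulators with 2 measured, 8 jasmonate genes with 1 measured and 4 tryptophan synthesis genes with 1 measured held 0 members. The measured jasmonate gene, PDF1.2A, was under background on every array and could not pass the rule's level requirement. OPCL1, a member, is not in the jasmonate list, so its count says nothing about jasmonate genes. The list of 6 sulfur deficiency markers had SDI2 alone measured. In the lists of sulfate transporters, leucine synthesis, salicylate defence and nitrate, no gene has a probe set that lists it alone, so these lists could not be followed.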

How the data were processed

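Expression in roots was measured on 10 ATH1 arrays, assigned to 5 groups of 2 from their titles. The deposited values are log10 expression values per probe set, made by the authors from the scans. The background correction, summarisation and normalization are not given in the sources used here. The base was settled from 4 spiked controls, which spanned 2.13 units, against 1.82 expected for log10, 6.06 for log2 and 4.2 for natural logs. Their slope of 1.13 to 1.2 means that differences of bright probe sets may be overstated. Values were multiplied by log2 of 10, with no further normalization. Of 22810 probe sets, 554 without values and 64 controls overlap in part and were left out, which left 22197. Gene names came from the platform annotation, which lists a single gene for 13513 probe sets, several for 503 and none for 8794, and from RefSeq (TAIR10.1), which matched 13436.

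A cell-means model over all arrays was fitted with limma 3.58.1 in R 4.3.3, with Benjamini-Hochberg adjustment over 22197 probe sets. It was run on simulated data with independent noise and shifts larger than the members' full-sulfate differences. That run cannot show how well the fit finds differences as small as theirs. Members, lists and roles were chosen with earlier results of these data known. Genes named were those with the 15 largest low-sulfate differences, list members, the 3 nearest the threshold on each side, the 5 largest and 5 smallest differences at full sulfate, the 5 largest falls and rises in Col, the 2 largest without a listed gene, and members of role groups. Where both Col arrays, or both full-sulfate arrays of a genotype, were at or under background, the fold is a lower bound, taken against the higher of that background and the dim value on each array. Alternatives were other normalizations, a filter on dim probe sets, other variance models, fewer arrays, array weights, a replicate block, and leaving out each array. Deviations of same-numbered arrays from their group means correlated at 0.07 for WKO lines and -0.14 for Col numbers. Promoter motifs were not analysed here.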

Additional observations from a re-analysis of the deposited data

Results flagged for a closer look

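Both WKO arrays lay above both Col arrays at low sulfate and below both at full sulfate for 13 members. These are 10.8% of the members, against 24.5% of all probe sets with both WKO arrays below both Col arrays at full sulfate, so the count is not above the general rate. Their +S WKO minus +S Col differences were -0.74 for AT1G52820, -0.20 for AT1G60750, -0.19 for SKP2A, AILP1 and GR2, -0.18 for 260335_at, -0.16 for AT1G23120, -0.13 for AT3G62860 and 254299_at, -0.12 for AT3G03150, -0.11 for 260302_at, -0.08 for AT4G24130 and -0.06 for AT5G04750. The change between sulfate levels was not tested, because the low-sulfate difference chose the members. All but AT1G52820 differed at full sulfate by 0.20 or less, and AT1G60750 was under background on all of its full-sulfate arrays.

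Low sulfate went with opposite changes in the genotypes, on every array, for 5 of the named members. Of all 120 members, 9 were lower in Col and higher in WKO by 0.5 or more, where 52 of 22197 probe sets were. Among the 69 probe sets at the same low-sulfate threshold but lower in OX by 0.5 or more, 34 were. Opposite changes are therefore not particular to the members. Members 263714_at, 259609_at and 250738_at, which are not among the named ones, also had opposite changes on every array. Probe set 263696_at was higher by 1.81 in WKO and differed by -0.71 in Col. The values were 1.13 in WKO and -1.41 in Col for AT2G43550, 0.71 in WKO and -0.77 in Col for AT3G48410, 0.65 in WKO and -0.58 in Col for CBL, and 0.61 in WKO and -0.76 in Col for AT2G31945. These differences too were not tested, since they share arrays with the choice of members.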

How the results depend on the processing

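At full sulfate 0 members passed the adjusted p, and this held under quantile normalization, median centring, the filter on dim probe sets, only the arrays compared, and each array left out in turn (0 to 0). With an intensity trend and robust variances 1 member passed, 250533_at, and with array weights 3 passed, 250533_at, 250670_at and 253879_s_at. The cause was not tested. Over all probe sets the count of 5 became 8 with quantile normalization, 23 with the dim filter, 31 with the trend, 69 with array weights and 59 without +S WKO line 4. At low sulfate 109 members passed, 67 with only the arrays compared, where fewer arrays estimate the spread, and 80 to 110 with an array left out. The 384 probe sets higher in WKO became 142 with only the arrays compared, 242 with the block, 255 with array weights, 202 without -S WKO line 1, 228 without -S WKO line 4 and 186 without -S Col 2. A replicate block left 0 members at full and 100 at low sulfate. WKO lines and Col samples share only the number 1, so these numbers pair no samples across genotypes. The median full-sulfate difference of 0.14 stayed at 0.14 to 0.15, and with an array left out at 0.14. The rule found 123 probe sets after quantile normalization, 118 of them members, and 109 to 148 with an array left out. A threshold of 1.0 kept 72, one of 0.6 kept 206, and an OX window of 0.3 kept 83. Among 43 named members, none of which passed at full sulfate, the sign of the full-sulfate difference turned for 10 with an array left out and for 0 under the other alternatives, all with values of 0.17 or less in size. AT1G12030 was at 0.14 with quantile normalization against 0.09. Leaving out 1 of 2 arrays cannot move a mean by more than the spread of its group, so small moves there show no stability. Values near background, between -0.58 and 0.37, limit what can be said of dim members.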
